A study of Mus musculus with 9 samples.

Results

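The genes described here are established transcriptional targets of p53, 10 in all: Cdkn1a, Ccng1, Mdm2, Bax, Bbc3, Trp53inp1, Plk2, Tnfrsf10b, Rps27l and Phlda3. They were chosen by symbol, with earlier results of these data known, and found through the Entrez Gene number of each array row. Of the 10 genes, 9 had a row named here, out of 24011 gene symbols on the array, and all 9 of those rows passed the filter on low levels that left 16808 genes for testing. Bax, and Trp53 itself, are not analysed here.

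p53 is a transcription factor that is normally kept low by the ubiquitin ligase MDM2. When DNA damage, nucleolar stress or oncogene signalling stabilises it, it switches on genes that arrest the cell cycle, repair DNA, trigger apoptosis or feed back on p53 itself. In the intestine, p53 and its targets are best known for the response of crypt cells to radiation. DHX9 is a helicase that unwinds RNA and DNA, and its loss in cultured human fibroblasts is known to activate p53.

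The series measured total RNA of the large intestine of mice on a C57BL/6 background with Affymetrix Mouse Gene 2.0 ST arrays. Each mouse line carried rtTA, a transcription activator that works only with doxycycline, and an inducible short hairpin RNA. The control line was FLuc.1309/rtTA, whose hairpin targets firefly luciferase, a gene that mice lack; the knockdown lines were DHX9.1271/rtTA and DHX9.837/rtTA, written DHX9-1271 and DHX9-837 below. Each of the 3 groups had 3 arrays. All groups, control included, drank doxycycline (1 mg/ml, with 5% sucrose) for 14 days from 4 weeks of age. Every array thus shares rtTA, the drug and the presence of a hairpin, while the hairpin's target sequence and the mouse line differ between groups. The promoter that drives rtTA, and with it the cells that make the hairpin, is not given in the labels. Each hairpin, that of the control included, is represented by 1 line. Because the samples are whole tissue, fewer cells of a type and less RNA per cell cannot be told apart. Nothing in the labels says that replicates are separate animals. The p-values then reflect only the spread among these arrays, which may be technical.

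Dhx9 was lower in all 6 hairpin arrays (8.18 to 8.27 on the log2 scale) than in the 3 control arrays (9.18 to 9.32). The mean difference of both hairpins from control was -1.02 (SE 0.044, adjusted p = 1.28e-05), which is 50.8% less signal. An exact two-sided permutation of the 9 arrays gave p = 0.0119, the smallest value that its 84 splits can give. The hairpins differed from each other in Dhx9 by -0.02 (95% interval -0.14 to 0.09). General epithelial markers, 10 of 10 tested, averaged 10.96 to 11.16 per array, and all 15 absorptive colonocyte markers were measured, as the tissue label requires. Each test below is a limma contrast over all 9 arrays with p-values adjusted over all 16808 genes, and a gene is called, or said to rise or fall, at an adjusted p under 0.05. A call with both hairpins is for the mean of the hairpin groups against control. It does not mean that each hairpin was called alone.

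Promoter sequence was at hand for 7 of the 9 genes, in 11 windows of 250 bases before to 50 bases after an annotated start (RefSeq, GRCm38.p6). They were searched on both strands for the p53 consensus response element, which is a pair of 10-base half-sites with 0 to 13 bases between them. The sequences below are shown because they hold the closest matches, and because they belong to 3 of the 4 genes that rose with both hairpins. Capitals mark the half-sites. The Cdkn1a window on chromosome 17 (chr17:29090866-29090977, plus strand) lies before the upstream of 2 annotated starts, 2790 bases apart. Its match has 0 mismatches, 12 bases between the half-sites, and lies 73 to 42 bases before that start; the 10 bases straight after the second half-site match a further half-site with 1 mismatch. The Ccng1 window on chromosome 11 (chr11:40755422-40755521, minus strand) has a match with 1 mismatch and no gap, 195 to 176 bases before the start. The Rps27l stretch on chromosome 9 (chr9:66946291-66946320, plus strand) has a match with 1 mismatch and no gap, 117 to 98 bases before the downstream start.
Cdkn1a: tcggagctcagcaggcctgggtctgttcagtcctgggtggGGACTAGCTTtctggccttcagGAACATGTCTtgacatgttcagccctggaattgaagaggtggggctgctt
Ccng1: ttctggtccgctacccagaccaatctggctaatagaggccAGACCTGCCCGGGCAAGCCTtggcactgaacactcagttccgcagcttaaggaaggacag
Rps27l: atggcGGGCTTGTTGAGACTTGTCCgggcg

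Among 32851 promoter windows of the same length, 0.0731% held a match with 0 mismatches and 1.09% a match with at most 1. The best match in the windows of Bbc3 had 3 mismatches, and those of Plk2, Mdm2 and Phlda3 had 4. Sequence outside these windows was not searched, so a gene with no close match here may have one elsewhere. A match is a description of the letters and no measure of binding, and the search was chosen after the expression values were seen. Genes in general with such a match are described after the members.

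With both hairpins against control, 4 of the 9 measured targets rose and 5 were not called: Ccng1 by 34.1%, Plk2 by 32.1%, Cdkn1a by 16.9% and Rps27l by 15.5%. Over all genes tested, 8.13% were called up and 5.33% down. The median log2 difference of the 9 genes was 0.11, beside 0.0011 over all genes. No member was called down. At an unadjusted p under 0.05, 4 members were higher and 0 lower, beside 16.6% and 12.4% of all genes. In Cdkn1a, Ccng1, Plk2 and Rps27l all 6 hairpin arrays lay above all 3 control arrays, a pattern shown by 10.7% of all genes tested; the opposite pattern, shown by 6.73% of genes, was seen in 0 of the 9.

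**Figure D1:**
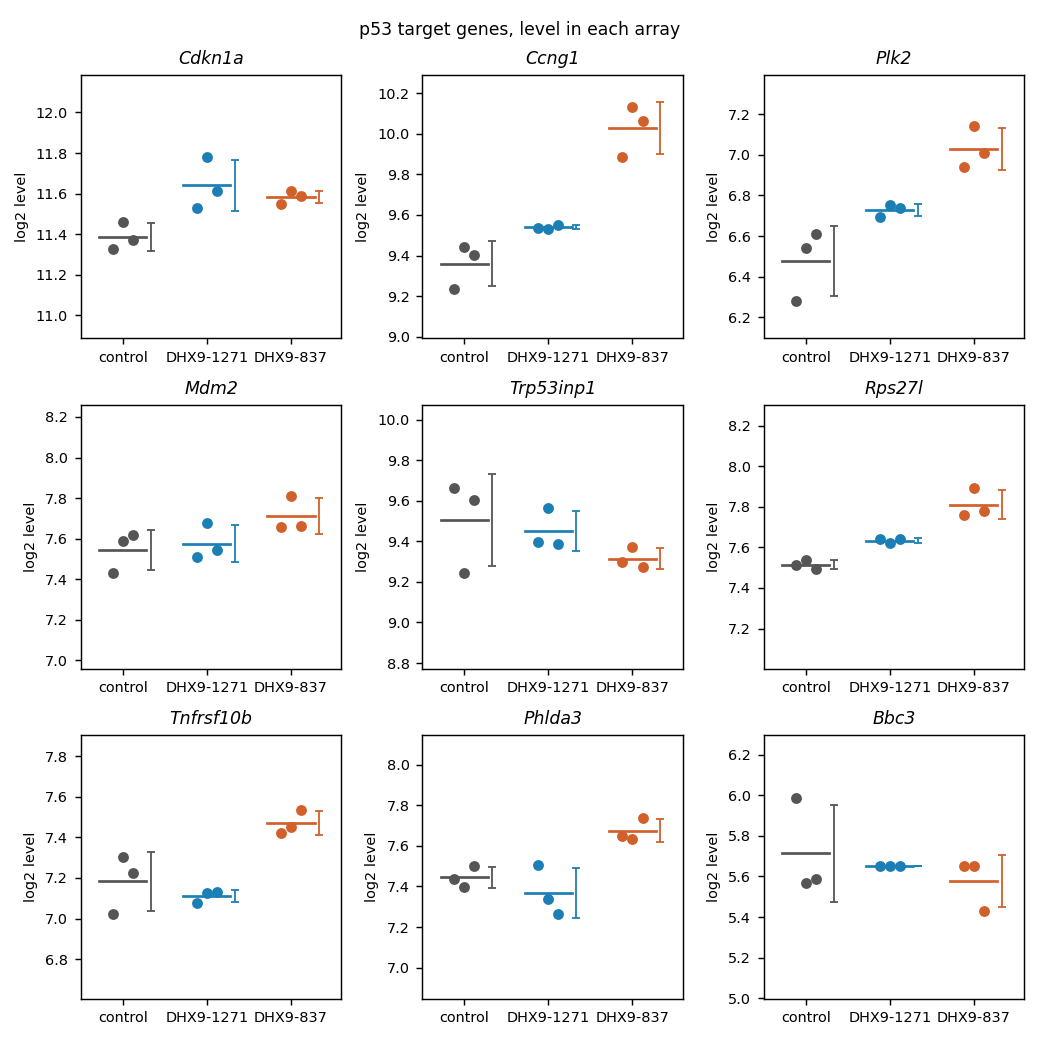
Log2 level of 9 p53 target genes (vertical axes, each spanning the same 1.3 log2 units) in each array, by group; points are arrays, horizontal bars group means and vertical bars SD (n = 3). The hairpin arrays all lie above the control arrays in Cdkn1a, Ccng1, Plk2 and Rps27l, while in Mdm2, Tnfrsf10b and Phlda3 all 3 DHX9-837 arrays do but not all DHX9-1271 arrays.

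Cdkn1a encodes p21, the inhibitor of cyclin-dependent kinases through which p53 arrests the cell cycle. Its log2 level was 11.33, 11.46 and 11.37 in the control arrays, 11.53, 11.78 and 11.61 in DHX9-1271, and 11.55, 11.61 and 11.59 in DHX9-837. Every hairpin array was above the highest control array, and the hairpin groups overlapped each other. The difference of both hairpins from control was 0.23 (SE 0.060, adjusted p = 0.0394). With each hairpin alone it was not called, at 0.25 for DHX9-1271 (SE 0.069, adjusted p = 0.0794) and 0.20 for DHX9-837 (SE 0.069, adjusted p = 0.0902). The rise in the combined contrast is close to the threshold: the adjusted p was between 0.0602 and 0.132 without control replicate 1 or 3, DHX9-1271 replicate 3, or any 1 of the DHX9-837 replicates, 0.068 with no filter on low levels and 0.0758 with array weights. Without DHX9-1271 replicate 2, the highest array, DHX9-837 alone was called (adjusted p = 0.0499).

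Ccng1 encodes cyclin G1, which recruits a phosphatase to MDM2 and takes part in the feedback on p53. Its log2 level was 9.23, 9.44 and 9.40 in control, 9.53, 9.53 and 9.55 in DHX9-1271, and 9.89, 10.13 and 10.06 in DHX9-837. The 3 groups did not overlap, with control lowest and DHX9-837 highest. The difference from control was 0.67 in DHX9-837 (SE 0.076, adjusted p = 0.000891), or 58.8% more signal, and 0.18 in DHX9-1271 (SE 0.076, adjusted p = 0.228), which was not called. Over both hairpins it was 0.42 (SE 0.066, adjusted p = 0.00457).

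Plk2 encodes polo-like kinase 2, a centriole duplication and checkpoint kinase. In control its log2 level was 6.28, 6.54 and 6.61, in DHX9-1271 it was 6.70, 6.75 and 6.74, and in DHX9-837 it was 6.94, 7.14 and 7.01. The groups again did not overlap and stood in the same order as for Ccng1, which they also did in Rps27l; 2.97% of all genes tested showed this order with no overlap. It rose by 0.40 over both hairpins (SE 0.076, adjusted p = 0.0101) and by 0.55 in DHX9-837 (SE 0.088, adjusted p = 0.00399), whereas the 0.25 of DHX9-1271 was not called (SE 0.088, adjusted p = 0.151).

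Rps27l encodes a ribosomal protein of the small subunit, a close relative of RPS27, that is known to affect the stability of MDM2 and p53. Its levels were tightly grouped, at 7.51, 7.54 and 7.49 in control, 7.64, 7.62 and 7.64 in DHX9-1271, and 7.76, 7.89 and 7.78 in DHX9-837. No array overlapped another group. The gene rose by 0.21 over both hairpins (SE 0.042, adjusted p = 0.0125) and by 0.30 in DHX9-837 (SE 0.048, adjusted p = 0.00435), and the 0.12 of DHX9-1271 was not called (SE 0.048, adjusted p = 0.203). Since Rps27 is so similar and how the probe sets were defined is not stated in the sources used here, the row may take signal from both; the Rps27 row differed from control by 0.02 over both hairpins (SE 0.11, adjusted p = 0.929). The calls of Ccng1, Plk2 and Rps27l in the combined contrast and in DHX9-837 held under every alternative setting run and without any 1 array.

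Of the members in the feedback and arrest group, Mdm2 and Trp53inp1 were not called in any contrast. Mdm2, whose product is both the main inhibitor of p53 and its target, measured 7.43, 7.59 and 7.62 in control, 7.51, 7.68 and 7.54 in DHX9-1271, and 7.66, 7.81 and 7.66 in DHX9-837. The 3 DHX9-837 arrays were above every control array, as in 7 of the 9 targets and 17.1% of all genes tested, and the DHX9-1271 arrays overlapped control. Its difference was 0.17 in DHX9-837 (95% interval -0.00039 to 0.33, adjusted p = 0.167) and 0.03 in DHX9-1271 (95% interval -0.13 to 0.20, adjusted p = 0.846).

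Trp53inp1 encodes a nuclear and autophagy protein that promotes p53 activity. Its control arrays were widely spread, at 9.66, 9.24 and 9.60, beside 9.40, 9.56 and 9.39 in DHX9-1271 and 9.30, 9.37 and 9.27 in DHX9-837. Both hairpin groups overlapped control, in which replicate 2 lay below the other 2 arrays. The difference was -0.12 over both hairpins (SE 0.091, adjusted p = 0.418) and -0.19 in DHX9-837 (SE 0.11, adjusted p = 0.27). Without control replicate 2 the gene was called down, by -0.25 over both hairpins (adjusted p = 0.0369) and by -0.32 in DHX9-837 (adjusted p = 0.0199).

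Among the targets that act in cell death, Tnfrsf10b rose in DHX9-837 and Bbc3 was not called. Tnfrsf10b encodes the death receptor for the ligand TRAIL. It measured 7.02, 7.30 and 7.23 in control, 7.08, 7.12 and 7.13 in DHX9-1271, and 7.42, 7.45 and 7.54 in DHX9-837. The DHX9-837 arrays were above all others, and the DHX9-1271 arrays lay within the control range. The rise in DHX9-837 was 0.29 (SE 0.073, adjusted p = 0.0305), or 21.9%, and the value of DHX9-1271 was -0.07 (SE 0.073, adjusted p = 0.611). The call in DHX9-837 was lost without control replicate 1 or 3, DHX9-1271 replicate 3, or any 1 of the DHX9-837 replicates (adjusted p = 0.0532 to 0.095), with no level filter (adjusted p = 0.0537) and in a fit of control and DHX9-837 alone (adjusted p = 0.0833).

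Bbc3 encodes PUMA, a BH3-only protein that triggers mitochondrial apoptosis. Its row was near the lower end of the tested range and took 5 distinct values in 9 arrays: 5.99, 5.57 and 5.59 in control, 5.65 in each DHX9-1271 array, and 5.65, 5.65 and 5.43 in DHX9-837. Control replicate 1 was the highest of the 9 and a DHX9-837 array the lowest. The difference of both hairpins was -0.10 (95% interval -0.32 to 0.12, adjusted p = 0.544), and it changed sign without control replicate 1 (0.038).

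Phlda3 encodes a small pleckstrin-homology protein that competes with the kinase AKT for membrane lipids. It measured 7.44, 7.40 and 7.50 in control, 7.51, 7.34 and 7.26 in DHX9-1271, and 7.65, 7.64 and 7.74 in DHX9-837. The DHX9-837 arrays were above every other array, and the DHX9-1271 arrays ran from just above the control range to below it. Its difference of 0.23 in DHX9-837 narrowly missed the threshold (SE 0.068, adjusted p = 0.0532), and it passed without DHX9-1271 replicate 1 (adjusted p = 0.0305), with a level filter at the median (adjusted p = 0.035) and with a variance trend (adjusted p = 0.0453). In DHX9-1271 the value was -0.08 (SE 0.068, adjusted p = 0.567).

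By hairpin, calls among the targets were made in DHX9-837 and not in DHX9-1271. In DHX9-837, 4 of the 9 targets rose (Ccng1, Plk2, Rps27l and Tnfrsf10b), where 8.67% of all genes were called up and 6.91% down, and the median of the 9 was 0.23 beside -0.0012 for all genes. In DHX9-1271, 0 of the 9 were called in either direction, where 2.83% of all genes were called up and 1.58% down, and the median was 0.03 beside 0.0057. At an unadjusted p under 0.05, 4 targets were higher in DHX9-1271 and 0 lower, beside 12.5% and 8.06% of all genes; the 4 are Cdkn1a, Plk2, Rps27l and Ccng1. With a variance trend, limma called 1 target up in DHX9-1271, Cdkn1a (adjusted p = 0.0423). The hairpin contrasts share the control arrays, so their values are not independent of each other.

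Tested directly, DHX9-837 exceeded DHX9-1271 in 2 of the 9 targets, where 0.696% of all genes were called higher and 1.21% lower in DHX9-837. Ccng1 was higher by 0.49 (SE 0.076, adjusted p = 0.02) and Tnfrsf10b by 0.36 (SE 0.073, adjusted p = 0.0481). The difference in Ccng1 was lost without any 1 of the DHX9-1271 replicates or without DHX9-837 replicate 2 or 3 (adjusted p = 0.0619 to 0.0926). That in Tnfrsf10b was lost without any 1 of the 6 hairpin arrays or control replicate 3 (adjusted p = 0.0735 to 0.163), with no level filter (adjusted p = 0.0907) and after centring of the arrays on their medians (adjusted p = 0.061).

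The 3 DHX9-837 arrays lay above the 3 DHX9-1271 arrays in 5 of the 9 targets, a pattern shown by 9.37% of all genes tested. Besides Ccng1 and Tnfrsf10b these were Phlda3, Plk2 and Rps27l, but in them the differences of 0.31, 0.30 and 0.18 were not called (adjusted p = 0.0625, 0.142 and 0.117). Their 95% intervals, unadjusted, were 0.15 to 0.46, 0.10 to 0.50 and 0.07 to 0.29. Cdkn1a stood apart from these genes in the order of the hairpins, with DHX9-837 at -0.06 from DHX9-1271 (95% interval -0.21 to 0.10, adjusted p = 0.789). The hairpins lowered Dhx9 itself to 8.22 and 8.20, as given above.

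**Figure D2:**
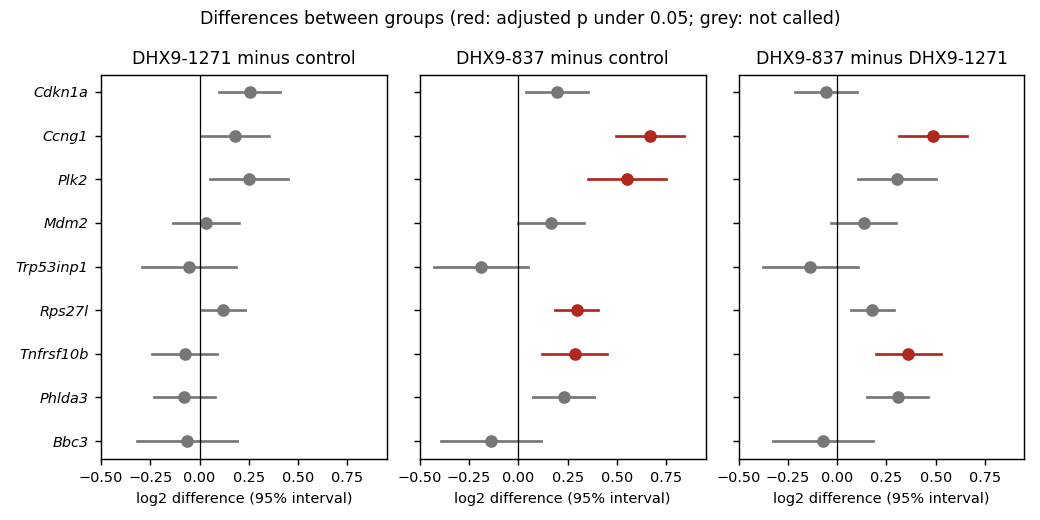
Log2 differences (horizontal axes) of DHX9-1271 from control, DHX9-837 from control and DHX9-837 from DHX9-1271 for 9 p53 targets; points are limma estimates, lines unadjusted 95% intervals, and red marks an adjusted p under 0.05. No target is red for DHX9-1271, 4 are for DHX9-837, and Ccng1 and Tnfrsf10b are for the difference between the hairpins.

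The closest relatives of the members were compared with them, since they share sequence or function without being classical p53 targets. Of 10 relatives, 2 rose with both hairpins, where 8.13% of all genes did, both from the Phlda family. In DHX9-1271 alone, 0 of the 10 were called, where 2.83% of all genes were called up and 1.58% down. Phlda1, a growth-factor-induced gene, rose by 0.59 (SE 0.11, adjusted p = 0.00956) and by 0.83 in DHX9-837 (SE 0.13, adjusted p = 0.00347). Phlda2, an imprinted growth regulator, rose by 0.35 (SE 0.086, adjusted p = 0.0309), a call that was lost without any 1 of the control or DHX9-1271 replicates (adjusted p = 0.0525 to 0.108); in DHX9-837 it rose by 0.48 (SE 0.099, adjusted p = 0.0131).

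Beside Cdkn1a, the p27 gene Cdkn1b differed by -0.12 over both hairpins (adjusted p = 0.149) and the p57 gene Cdkn1c by -0.14 (adjusted p = 0.128). Cdkn1b fell by 0.19 in DHX9-837 (adjusted p = 0.0489), which no fit with 1 array left out called (adjusted p = 0.0502 to 0.14). Ccng2, the other cyclin G gene, differed by -0.08 (adjusted p = 0.368), and Trp53inp2 by 0.07 (adjusted p = 0.515). The polo-like kinases Plk3 (0.02, adjusted p = 0.815) and Plk5 (-0.09, adjusted p = 0.424) and the MDM2 relative Mdm4 (0.01, adjusted p = 0.854) were not called.

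Regulators of p53 were called about as often as genes in general, 12.5% of them beside 13.5% of all genes tested, up and down together. Of 24 kinases, ligases, acetylases and other regulators tested, 1 rose and 2 fell with both hairpins, and the median was 0.02. Chek1, the checkpoint kinase of the replication stress response, rose by 0.34 (SE 0.066, adjusted p = 0.0115). Setd7, a lysine methyltransferase that can modify p53, fell by 0.31 (SE 0.055, adjusted p = 0.00774). Trp73, a p53 family member, fell by 0.25 (SE 0.066, adjusted p = 0.0363), a call lost when any 1 array other than DHX9-1271 replicate 1 and DHX9-837 replicate 1 was left out (adjusted p = 0.0533 to 0.126).

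Of 63 other p53-responsive genes tested, beyond the 10, 10 were called with both hairpins (15.9%, beside 13.5% of all genes). That share counts rises and falls together. The rises and falls of each list, given below, stand beside 8.13% of all genes that rose and 5.33% that fell. Of 15 further arrest and feedback genes, 1 rose and 1 fell with both hairpins (median 0.02). Gtse1, a mitotic protein that exports p53 from the nucleus, rose by 0.51 (SE 0.077, adjusted p = 0.00388) and by 0.72 in DHX9-837. Cdc42bpg, a CDC42-binding kinase gene, fell by 0.22 (SE 0.057, adjusted p = 0.0364), which was lost without any 1 array other than control replicate 2 and DHX9-837 replicate 3 (adjusted p = 0.0522 to 0.126). In DHX9-1271 alone, 0 of the 15 were called, where 2.83% of all genes were called up and 1.58% down. In DHX9-837 alone, 3 of the 15 rose and 1 fell, beside 8.67% and 6.91% of all genes. The 2 that joined Gtse1 there are named after their values were seen. Zmat3, a p53-induced RNA-binding protein gene, rose by 0.29 (SE 0.062, adjusted p = 0.0153; lost without DHX9-837 replicate 1 or 3, adjusted p = 0.0514 and 0.0524). Trp53cor1, the long noncoding RNA also called lincRNA-p21 that lies next to Cdkn1a, rose by 0.24 (SE 0.051, adjusted p = 0.0132). Its log2 level was 6.00, 6.05 and 6.05 in control, 6.07, 6.03 and 5.96 in DHX9-1271, and 6.35, 6.22 and 6.26 in DHX9-837. Only the DHX9-837 arrays of Trp53cor1 stood clear of control, and their difference from DHX9-1271 (0.26, adjusted p = 0.0457) was not called in any fit with 1 array left out (adjusted p = 0.0545 to 0.185).

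Of 15 further death genes, 2 fell with both hairpins (median 0.03), and in DHX9-837 the count was the same. Among all genes, 5.33% fell with both hairpins and 6.91% in DHX9-837. The death receptor gene Fas fell by 0.25 (SE 0.067, adjusted p = 0.0429), which was lost without any 1 array other than control replicate 2 and DHX9-837 replicate 1 (adjusted p = 0.0768 to 0.141). Casp1, the inflammatory caspase gene, fell by 0.19 (SE 0.047, adjusted p = 0.0286), lost without control replicate 1 or 3, DHX9-1271 replicate 1 or 2, or DHX9-837 replicate 2 or 3 (adjusted p = 0.0519 to 0.0879). Of 11 further repair genes, 1 rose (median 0.07), the excision nuclease gene Ercc5, by 0.22 (SE 0.047, adjusted p = 0.0186).

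Genes of metabolism and secreted factors held the largest rise among the p53-responsive genes tested. Of 22 tested, 3 rose and 2 fell with both hairpins (median -0.02), beside 8.13% and 5.33% of all genes. In DHX9-837, 5 rose and 1 fell, beside 8.67% and 6.91% of all genes. Ephx1, the microsomal epoxide hydrolase of drug metabolism, measured 6.96, 7.13 and 7.18 in control, 7.47, 7.72 and 7.54 in DHX9-1271, and 8.33, 8.32 and 8.33 in DHX9-837. The groups did not overlap, in the same order as for Ccng1. It rose by 0.87 over both hairpins (SE 0.067, adjusted p = 0.000229), by 1.24 in DHX9-837 (adjusted p = 5.49e-05) and by 0.49 in DHX9-1271 (adjusted p = 0.0128, or 0.0541 without DHX9-1271 replicate 3). DHX9-837 was 0.75 above DHX9-1271 (adjusted p = 0.00503).

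Dglucy, the mitochondrial D-glutamate cyclase gene, rose by 0.55 over both hairpins (SE 0.072, adjusted p = 0.00219). Ptger4, a prostaglandin E receptor gene, rose by 0.43 (SE 0.088, adjusted p = 0.0133, or 0.052 without control replicate 1). Abcb1a, the drug efflux pump of the apical membrane, fell by 0.48 (SE 0.052, adjusted p = 0.000988). Sesn2, a stress-induced inhibitor of mTORC1, fell by 0.45 (SE 0.13, adjusted p = 0.0491), and every fit that left out 1 array other than control replicate 2 lost that call (adjusted p = 0.0795 to 0.171). The control arrays of Sesn2 measured 8.11, 7.44 and 7.99, and replicate 2 lay within the range of the hairpin arrays (7.35 to 7.45).

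**Figure D3:**
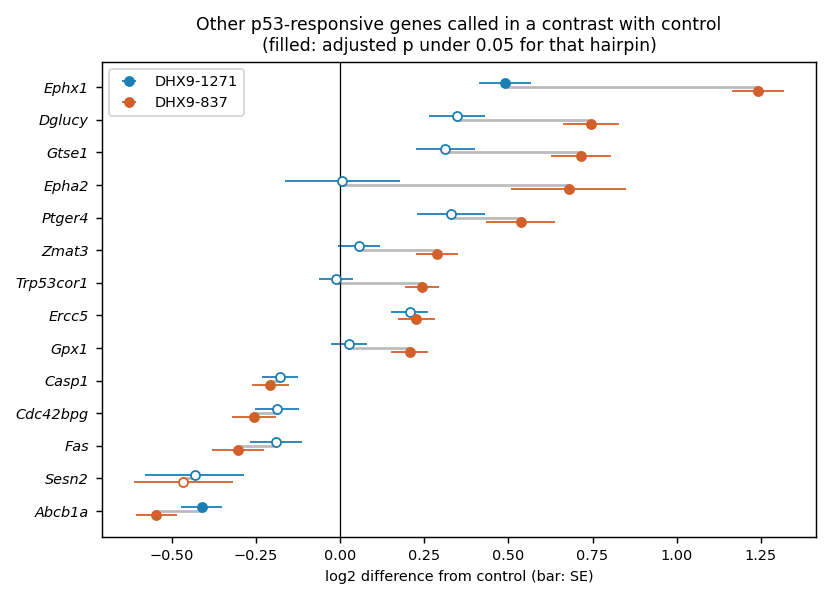
Log2 difference from control (horizontal axis; bars are SE) of the further p53-responsive genes called in at least 1 contrast with control, for DHX9-1271 (blue) and DHX9-837 (orange); filled points have an adjusted p under 0.05. Ephx1 reaches 1.24 in DHX9-837 and 0.49 in DHX9-1271, and Abcb1a is the lowest gene, with both points filled.

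Genes that p53 and p21 are known to hold down through the DREAM complex, the cell cycle genes, were higher with the hairpins. Of 29 tested, 19 rose and 1 fell with both hairpins, with a median of 0.33 beside 0.0011 for all genes. Over all genes 8.13% rose and 5.33% fell. In DHX9-1271, 10 rose, where 2.83% of all genes did. In DHX9-837, 16 rose and 1 fell, beside 8.67% and 6.91% of all genes. Kif23, a kinesin of cytokinesis, rose by 0.71 (SE 0.075, adjusted p = 0.000939), Ccnb2, a mitotic cyclin, by 0.66 (SE 0.097, adjusted p = 0.00361), Mki67, the proliferation antigen, by 0.59 (SE 0.075, adjusted p = 0.00188), and Plk4, the centriole kinase, by 0.52 (SE 0.084, adjusted p = 0.00528). The 1 that fell was the phosphatase gene Cdc25a (-0.21, adjusted p = 0.0283; lost without control replicate 2 or 3 or DHX9-1271 replicate 2 or 3, adjusted p = 0.0585 to 0.0876). The mean of the 29 was 7.26 to 7.52 in the control arrays, 7.69 to 7.71 in DHX9-1271 and 7.68 to 7.79 in DHX9-837. Cdkn1a and most of these cell cycle genes were thus higher in the same samples, and whole-tissue RNA does not say whether in the same cells.

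In lists further downstream, the share called was below and above that of all genes (13.5%): 6.67% of the BCL2 family, 20% of caspases and death receptors and 27.3% of genes associated with senescence. Of 15 BCL2 family genes, 1 fell, the survival gene Mcl1, by 0.26 (SE 0.052, adjusted p = 0.013). Of 15 caspase and death receptor genes, 2 rose and 1 fell: Casp6, an executioner caspase gene, by 0.20 (adjusted p = 0.0463), the TNF receptor gene Tnfrsf1a by 0.15 (adjusted p = 0.0405), and Fas, given above. Casp6 was lost without any 1 array other than control replicate 3 and DHX9-837 replicate 3 (adjusted p = 0.0645 to 0.135), and Tnfrsf1a without any other than control replicate 2 (adjusted p = 0.064 to 0.114). Of 11 genes associated with senescence, 2 rose and 1 fell. Igfbp7, a secreted IGF-binding protein gene, rose by 0.41 (SE 0.050, adjusted p = 0.00163), Plaur, the urokinase receptor gene, by 0.42 (SE 0.063, adjusted p = 0.00423), and Cdkn2b, the p15 inhibitor gene, fell by 0.43 (SE 0.072, adjusted p = 0.00617). In DHX9-837 Plaur rose by 0.73 and Tnfrsf1a by 0.27, and neither gene was called in DHX9-1271.

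The genes whose pattern over the 9 arrays was most like that of a member were found by the root mean square difference of log2 levels, each gene centred on its own mean. For Ccng1 they were Oxct1, the ketone body transferase gene (0.0496), Srm, spermidine synthase (0.0576), and Nop2, a nucleolar RNA methyltransferase (0.0685). All 3 are lowest in control and highest in DHX9-837, as Ccng1 is: Oxct1 averaged 8.79, 9.01 and 9.51 in control, DHX9-1271 and DHX9-837. Among the 16807 genes ranked for Ccng1, Plk2 stood at rank 9, Tnfrsf10b at 300, Rps27l at 369, Phlda3 at 994, Mdm2 at 1290, Cdkn1a at 2908, Bbc3 at 14450, Trp53inp1 at 14875 and Dhx9 at 16678. For Cdkn1a they were Rsu1 (0.0333), Shisa3 (0.0337) and Rassf2 (0.0431), and the nearest other member was Mdm2 at rank 2091. By this measure the member most like Ccng1 was Plk2, and no member was near Cdkn1a. Small differences favour genes that vary little, so ranks for Cdkn1a, which varied less than Ccng1, compare it with many nearly flat genes.

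Genes with a p53 consensus match of at most 1 mismatch in a promoter window numbered 134 among those tested. Of these, 16 rose and 8 fell with both hairpins, 11.9% and 5.97%, beside 8.04% and 5.55% of the 12856 tested genes with a listed promoter. The 134 include Cdkn1a, Ccng1 and Rps27l; without them 13 of 131 rose, 9.92%. In DHX9-837, 17 of 134 rose (12.7%), and 15 of 131 without the members (11.5%), beside 8.59% of genes with a listed promoter. Of the 7 tested genes with 0 mismatches, 0 rose and 1 fell in DHX9-837. With both hairpins 1 of the 7 rose, Cdkn1a itself, and 1 fell. These shares are given as a description with no test.

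Markers of cell types moved with the groups as well. The counts below stand beside 8.13% of all genes that rose and 5.33% that fell with both hairpins. Of 9 B and plasma cell markers, 4 rose with both hairpins, and the list mean per array was 7.10 to 7.24 (control), 7.37 to 7.89 (DHX9-1271) and 7.42 to 7.79 (DHX9-837). Of 10 endothelial markers 6 rose (7.34 to 7.40, 7.57 to 7.64 and 7.52 to 7.58), and of 11 fibroblast and matrix markers 5 rose (8.74 to 8.99, 9.09 to 9.16 and 9.04 to 9.13). Of 9 macrophage and granulocyte markers 4 rose and 1 fell (7.56 to 7.62, 7.71 to 7.79 and 7.82 to 7.87). Of 15 absorptive colonocyte markers 6 fell (11.50 to 11.54, 11.26 to 11.34 and 11.14 to 11.18). Of 14 crypt, stem cell and Wnt markers 4 rose and 1 fell (7.52 to 7.70, 7.63 to 7.74 and 7.66 to 8.01), with groups that overlapped. Of 10 goblet cell markers 3 rose and 1 fell (10.59 to 10.82, 10.82 to 10.84 and 10.77 to 10.78). Of 10 general epithelial markers 3 rose (10.963 to 11.001, 11.070 to 11.110 and 11.115 to 11.162), with groups that did not overlap. Of 7 enteroendocrine markers 1 rose and 1 fell, and of 11 T and NK cell markers 1 rose, with array means that overlapped between groups. Of 10 smooth muscle markers limma called 0 with both hairpins, and 1 was higher at an unadjusted p under 0.05. Array means of this list ran 10.09 to 10.24, 10.17 to 10.30 and 9.92 to 10.11, groups listed as before. Each hairpin group overlapped control, but DHX9-837 lay wholly below DHX9-1271. No smooth muscle marker was higher in DHX9-837 than in DHX9-1271 (median difference -0.21), and 1 was called lower. Of 16 immediate early genes, which respond within minutes to handling and other stimuli, 1 rose and 5 fell. The part of these shifts in the values of the p53 targets was not tested.

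The mean of the 9 p53 targets, on the same scale, was 7.99 to 8.05 in control, 8.06 to 8.12 in DHX9-1271 and 8.20 to 8.30 in DHX9-837. Its groups did not overlap, and neither did those of the absorptive colonocyte, the macrophage and granulocyte, or the general epithelial markers. How often the means of other sets of genes do so was not computed. The mean does not stand for each target: the difference from control was positive in 5 of the 9 in DHX9-1271 and in 7 in DHX9-837. The macrophage and granulocyte and the general epithelial lists stood in the same order of groups as the targets. The absorptive colonocyte list stood in the opposite order. The array means of the B cell, fibroblast and endothelial lists overlapped between the hairpin groups, unlike those of the targets.

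**Figure D4:**
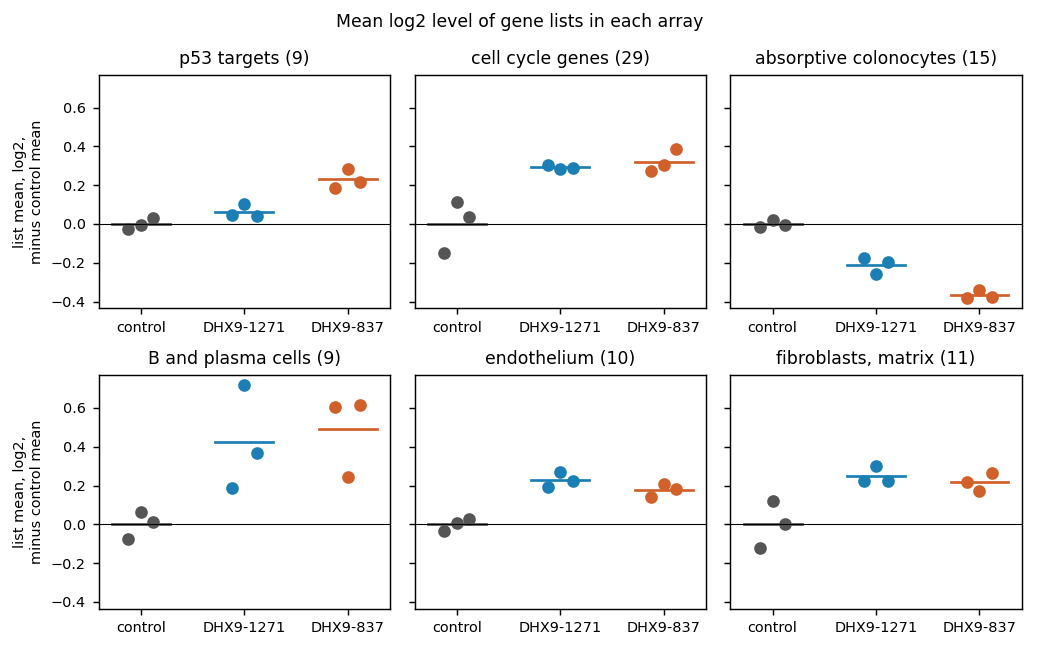
Mean log2 level of 6 gene lists in each array, minus the mean of the control arrays (vertical axis), by group; points are arrays, bars are group means, and the number of genes stands in each title. The p53 targets step up from control to DHX9-1271 to DHX9-837, absorptive colonocyte markers step down in the same order, and the cell cycle, endothelial and fibroblast lists are raised in both hairpin groups.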

How the data were processed

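The deposited log2 levels of 24973 probe sets on 9 arrays were computed by the authors; the submitters' processing notes name RMA, R 3.1.1 and oligo 1.30.0. Options, probe set definition and build: not given in the sources used here. RMA equalises the distributions of the arrays, so a shift of most genes would not be seen. Array medians ran from 6.24 to 6.28, and correlations between arrays from 0.979 to 0.995 within and 0.959 to 0.988 between groups. The number of arrays limits the precision.

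Titles gave each array's group and replicate. The platform table named 24015 probe sets with 1 gene and 0 with several, and 958 are unnamed here. The brightest probe set per symbol was kept (4 dropped), and genes under the 30th percentile of mean level (log2 5.28) were left out. limma 3.58.1 in R 4.3.3 fitted group means with moderated variances (6 residual and 2.84 prior degrees of freedom) and Benjamini-Hochberg adjustment over 16808 genes, called at 0.05. It was tested on simulated data. Figures used matplotlib 3.10.9.

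The members and lists were chosen with earlier results of these data known. Named were all members and their relatives, up to 4 called genes of smallest p per further list in the combined contrast, and the 3 nearest genes to Ccng1 and Cdkn1a; from the cell type lists, counts only. Sesn2, Cdc25a, Zmat3 and Trp53cor1 were added after their values were seen. Alternatives were the level filter, mean of probe sets, array centring, cyclic loess, trend, robust moderation, array weights, pairs of groups alone, replicate block and each array left out.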

Additional observations from a re-analysis of the deposited data

Results flagged for a closer look

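The effect of the hairpins differed, by the test of the difference between them in limma, in 2 of the 9 p53 targets and in 7 other genes named above. Over all genes tested, 0.696% were called higher and 1.21% lower in DHX9-837 than in DHX9-1271. Only the targets, genes of chosen lists and the genes nearest to Ccng1 or Cdkn1a were looked at here. The 7 are thus not a count over all genes. DHX9-837 was above DHX9-1271 by 0.49 in Ccng1 and by 0.36 in Tnfrsf10b on the log2 scale. Of the further p53-responsive genes it was above by 0.75 in Ephx1 and by 0.26 in Trp53cor1. Of the downstream lists it was above by 0.64 in Plaur (adjusted p = 0.00777) and by 0.24 in Tnfrsf1a (adjusted p = 0.0466; lost without any 1 array other than control replicate 2 or 3, adjusted p = 0.0563 to 0.16). Of the genes nearest to Ccng1 it was above by 0.49 in Oxct1 (adjusted p = 0.0196), 0.43 in Srm (adjusted p = 0.0113) and 0.40 in Nop2 (adjusted p = 0.0155), which were picked for a pattern like that of Ccng1. Oxct1 lost the call without any 1 of the hairpin arrays, Srm without DHX9-1271 replicate 1 or 3, and Nop2 without any 1 of the DHX9-1271 replicates or DHX9-837 replicate 2 (adjusted p = 0.0507 to 0.0853 over these fits). Their likeness to Ccng1 fixed the direction in these 3 genes. Each hairpin is represented by 3 arrays of 1 line.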

How the results depend on the processing

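The counts of 4 p53 targets up with both hairpins and 4 up in DHX9-837 stayed at 3 to 4 and 3 to 5 under every alternative, and the fall of Dhx9 kept its call in each. In DHX9-1271, 1 target was called with a variance trend. Between the hairpins 1 target was called with no level filter, with arrays centred or with the replicate block, and 5 with array weights. Over all genes, the main fit called 1367 up and 896 down with both hairpins and 475 and 266 in DHX9-1271. It called 1457 and 1161 in DHX9-837, and 117 and 203 between hairpins. DHX9-1271 called 254 up and 154 down with no level filter and 207 and 129 with its 2 groups alone. DHX9-837 called 942 and 732 with its 2 groups alone. Between hairpins the counts were 53 and 87 with no level filter, 194 and 347 with a trend, 282 and 437 with array weights, 320 down with a filter at the median and 178 up with cyclic loess. Cyclic loess also moved the share of calls that were up in DHX9-1271 from 64.1% to 53.6%.

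Leaving out 1 array at a time gave 779 to 1161 genes up and 584 to 910 down with both hairpins, 77 to 431 and 51 to 283 in DHX9-1271, 942 to 1333 up in DHX9-837, and 9 to 125 and 19 to 237 between hairpins. It gave 0 to 1 targets down with both hairpins and in DHX9-837, and 0 to 2 up between hairpins. A fit with 1 array left out also has fewer residual degrees of freedom, so a lost call need not rest on that array. Without DHX9-1271 replicate 1, for example, Cdkn1b in DHX9-837 kept its difference of -0.19 but had an adjusted p of 0.075. Differences that were not called changed sign when 1 array was left out. Without control replicate 1, Bbc3 went to 0.038 with both hairpins (range over arrays left out -0.17 to 0.038), 0.075 in DHX9-1271 (-0.14 to 0.075) and 0.00072 in DHX9-837 (-0.21 to 0.00072), Mdm2 in DHX9-1271 to -0.025 (-0.025 to 0.068) and Trp53inp1 in DHX9-1271 to 0.026 (-0.18 to 0.026). Without DHX9-1271 replicate 2, Mdm2 in DHX9-1271 went to -0.019 and the hairpin difference of Cdkn1a to 0.012 (-0.11 to 0.012). The cause was not tested.

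Replicate numbers are shared by the groups, but same-numbered arrays did not deviate together: 2 of 9 pairs correlated above 0.1 (range -0.37 to 0.26). With the replicate number as a block, DHX9-1271 called 264 up and 143 down and the hairpin difference 62 and 106, with Tnfrsf10b at an adjusted p of 0.0554; the other counts of targets were the same.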
